A study of Mus musculus with 30 samples.

Results

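The oncofetal and imprinted growth genes are a group of 10 mouse genes, several of which are known for high levels in the embryo and low levels after birth. They were chosen by name as Lin28b, Igf2bp1, Igf2bp2, Igf2bp3, Hmga1, Hmga2, Igf2, H19, Dlk1 and Peg3. Of the 14225 transcripts of the expression table, 7 carried one of these symbols, 1 transcript per gene. These were Lin28b, Igf2bp1, Igf2bp2, Igf2bp3, Hmga2, Igf2 and Peg3. Hmga1, H19 and Dlk1 had no row and were not analysed here.

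LIN28B is an RNA-binding protein of fetal tissue that blocks the maturation of let-7 microRNAs. The mature let-7 microRNAs in turn repress mRNAs that carry their target sites, and Lin28b, Hmga2 and the Igf2bp genes are known targets. The IGF2BP proteins bind mRNAs, the Igf2 mRNA among them, and affect their stability, transport and translation. HMGA2 is an architectural chromatin protein, IGF2 is a fetal growth factor, and Igf2 and Peg3 are imprinted genes that are expressed from the paternal allele. Mouse microglia descend from yolk sac progenitors, divide through the first weeks after birth, and renew slowly in the adult.

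RNA was measured in CD11b+ microglia, isolated with magnetic beads from the whole brain of C57BL/6J mice. The dams had been given saline (Saline) or poly(I:C), a mimic of viral RNA that sets off maternal immune activation (MIA). Offspring were taken at embryonic day 17 (E17) and postnatal days 7, 20 and 60 (P7, P20 and P60), and at P60 each kind of offspring was either on control chow (CTRL) or repopulated (MG-REP). MG-REP offspring had received chow with PLX5622, an inhibitor of the CSF1 receptor that depletes microglia, and then control chow, on which microglia returned. The 10 groups were E17 Saline, E17 MIA, P7 Saline, P7 MIA, P20 Saline, P20 MIA, P60 Saline_CTRL, P60 MIA_CTRL, P60 Saline_MG-REP and P60 MIA_MG-REP, with 3 libraries each. A library came from 1 litter at E17, from 3 pooled brains at P7 and from 1 brain at P20 and P60. The paper reports both sexes. By Xist, an RNA of female cells, the mix of sexes was uneven among the P20 and P60 groups, as given with the results. The labels name no transgene or engineered allele in any group.

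Levels are given in TPM, a scale that divides reads by transcript length and by the total of the library, so that genes can be compared. From the steps between low values, the libraries held an estimated 7977000 to 12850000 assigned reads (median 10460000), and estimated reads behind a value are given where they are few. The microglia markers were present in all 30 libraries, with C1qa at 3523 to 11149 TPM, Csf1r at 2934 to 9492 TPM, Cx3cr1 at 1539 to 4948 TPM and Fcrls at 1395 to 4875 TPM. Libraries E17 MIA replicate 1, E17 MIA replicate 3 and P7 MIA replicate 3 stood apart by their transcripts of other brain cells, and P60 Saline_MG-REP replicate 2 by those of monocytes and neutrophils. P7 MIA replicate 2 was also rich in choroid plexus markers, at 10080 TPM beside 10110 in replicate 3 and 1934 in replicate 1. These values stand beside the results they touch. In bulk RNA, fewer cells that express a gene and less RNA per cell cannot be told apart.

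Possible let-7 target sites were searched in the 7 mRNAs because let-7 is a known link from LIN28B to some of these genes. The let-7 microRNAs themselves were not measured. All mature let-7 family members in the RefSeq table (GRCm38.p6) share bases 2 to 8, the seed, which is in capitals in 4 of them:
mmu-let-7a-5p: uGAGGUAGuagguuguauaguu
mmu-let-7c-5p: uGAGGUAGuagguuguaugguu
mmu-let-7i-5p: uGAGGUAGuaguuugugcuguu
mmu-miR-98-5p: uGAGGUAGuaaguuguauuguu

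The matching target letters CTACCTC were searched on the sense strand of the transcript of each gene in GENCODE M21 (GRCm38). At least 1 match was present in 3184 of 14005 transcripts (22.7%). Hmga2 held 6 matches (4 in the 3′ UTR and 2 in the 5′ UTR), Lin28b 5 (4 in the 3′ UTR and 1 in the coding sequence), Igf2bp1 4 (all in the 3′ UTR), Igf2 2 (1 in the 5′ UTR and 1 in the coding sequence), and Igf2bp2, Igf2bp3 and Peg3 1 each in the 3′ UTR. Among transcripts within 25% of the same length, 0.0701% held as many matches as Hmga2, 0.103% as many as Lin28b and 0.772% as many as Igf2bp1. For Igf2bp2, Igf2bp3 and Peg3 that share was 25.8%, 27.6% and 45.6%, so that 1 match is common at their length. The windows of 23 bases below show 1 match each in a 3′ UTR, in capitals, for the 5 genes whose match is followed by A there, a form that let-7 is known to bind well:
Lin28b (chr10:45381022-45381044, minus strand): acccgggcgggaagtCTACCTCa
Igf2bp1 (chr11:95961778-95961800, minus strand): gctgtgcgaagtaaaCTACCTCa
Igf2bp2 (chr16:22059473-22059495, minus strand): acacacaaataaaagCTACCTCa
Igf2bp3 (chr6:49086787-49086809, minus strand): tgcatttttactcaaCTACCTCa
Hmga2 (chr10:120364224-120364246, minus strand): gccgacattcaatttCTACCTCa
A match is a description of the transcript and not a shown site of repression.

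Lin28b (NM_001031772, chromosome 10, 45376617 to 45486314, GRCm38.p6) was at 9.58, 8.17 and 11.3 TPM in E17 Saline and at 7.56, 10.5 and 8.46 TPM in E17 MIA. It was at 5.20, 3.45 and 2.56 TPM in P7 Saline and at 3.08, 3.49 and 2.88 TPM in P7 MIA. The E17 libraries all lay above the P7 libraries, and the latter above every later library. At P20, Lin28b was at 0.70, 0.31 and 0.32 TPM in Saline and at 0.29, 0.05 and 0.37 TPM in MIA. At P60 it was at 0.39, 0.31 and 0.13 TPM in Saline_CTRL and at 0.61, 0.10 and 0.04 TPM in MIA_CTRL. The P20 and P60 control libraries thus overlapped, and the P60 Saline_CTRL mean was 2.86% of the E17 Saline mean, on 16 estimated reads in 3 libraries against 720. In P60 Saline_MG-REP, Lin28b was listed at 0, 0 and 0.05 TPM (1 estimated read in all), and in P60 MIA_MG-REP at 0.05, 0.09 and 0.04 TPM (4 reads). No MG-REP library of either kind came near an E17 or P7 library.

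Igf2bp3 (NM_023670, chromosome 6, 49085218 to 49215469) was the most abundant of the 7 genes at E17, with 92.4, 108 and 98.4 TPM in Saline and 92.8, 102 and 91.4 TPM in MIA. It was at 73.7, 67.9 and 71.8 TPM in P7 Saline and at 71.9, 70.5 and 59.1 TPM in P7 MIA. These levels are close together, with no library of either age inside the range of the other. It was at 13.5, 11.04 and 12.9 TPM in P20 Saline and at 13.6, 11.8 and 14.6 TPM in P20 MIA. At P60, Saline_CTRL held 1.99, 2.85 and 2.40 TPM and MIA_CTRL 2.34, 1.79 and 2.10 TPM. The steps from P7 to P20 and from P20 to P60 each left a gap between all libraries of one age and all control libraries of the next. The P60 Saline_MG-REP libraries were at 5, 3.51 and 2.58 TPM and the MIA_MG-REP libraries at 2.66, 3.15 and 2.79 TPM. The lowest Saline_MG-REP library lay below the highest Saline_CTRL library, so that these groups overlapped, whereas the MIA_MG-REP libraries all lay above the MIA_CTRL libraries.

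Igf2bp2 (NM_183029, chromosome 16, 22059009 to 22163299) was at 18.5, 13.9 and 14.8 TPM in E17 Saline and at 23.4, 12.2 and 18.1 TPM in E17 MIA. In P60 Saline_CTRL it was at 7.63, 7.13 and 12.0 TPM and in MIA_CTRL at 6.49, 10.1 and 8.87 TPM. It was the only gene of the Igf2bp family to keep a large part of its fetal level in the adult controls, at 56.7% of the E17 mean in Saline and 47.3% in MIA offspring. The values between these ages were 8.07 to 14.2 TPM at P7 and 7.70 to 13.6 TPM at P20, and neighbouring ages overlapped. In the repopulated groups it was at 1.23, 2.79 and 1.97 TPM in Saline_MG-REP and at 5.05, 6.28 and 6.41 TPM in MIA_MG-REP. The Saline_MG-REP libraries were the 3 lowest of all 30, and the MIA_MG-REP libraries were next above them.

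Igf2bp1 (NM_009951, chromosome 11, 95957163 to 96005944) was at 9.78 ± 3.02 TPM (SD, n = 3) in E17 Saline and 13.2 ± 6.22 TPM in E17 MIA. By P7 it was at 0.843 ± 0.375 and 1.12 ± 0.644 TPM, which is 8.63% and 8.50% of the E17 means. No other of the 7 genes lost as large a share of its level between E17 and P7. From P20 on no library exceeded 0.23 TPM, and the P60 means of 0.02 to 0.123 TPM rested on 2 to 12 estimated reads a group.

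Hmga2 (NM_010441, chromosome 10, 120361268 to 120476469) was the lowest of the genes at E17, with 1.16 ± 0.456 TPM in Saline and 2.05 ± 1.30 TPM in MIA (n = 3 each). Its means were 0.557 and 0.593 TPM at P7 and 0.06 to 0.273 TPM in the 6 later groups. All values of Hmga2 rest on few reads, from 99 in E17 MIA to 3 in P60 Saline_MG-REP. A pseudogene, Hmga2-ps1, has a row of its own at 28.8 ± 5.35 TPM in E17 Saline and 130 ± 20.5 TPM in P60 Saline_CTRL, so that the assignment of reads to Hmga2 is uncertain.

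Igf2 (NM_010514, chromosome 7, 142650768 to 142666816) was at 11.3 ± 3.57 TPM in E17 Saline and 16.9 ± 8.06 TPM in E17 MIA (SD, n = 3). Its means were lower at each later age, with 5.82 and 7.48 TPM at P7, 3.12 and 3.08 TPM at P20, and 1.62 and 2.27 TPM in the P60 controls, Saline before MIA. In P60 Saline_MG-REP it was at 0.59, 1.35 and 0.75 TPM, below each Saline_CTRL library (1.38 to 1.92 TPM), and in MIA_MG-REP at 2.79, 2.24 and 1.44 TPM, across the MIA_CTRL range. The antisense gene Igf2os overlaps Igf2 and was at 1.99 ± 0.972 TPM in E17 Saline. The libraries were not stranded, so that reads of the 2 genes cannot be told apart where they overlap.

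Peg3 (NM_008817, chromosome 7, 6703892 to 6730462), which encodes a zinc finger protein, did not separate by age. It was at 8.42 to 19.4 TPM in E17 Saline, 11.9 to 15.2 TPM in P7 Saline, 11.4 to 17.4 TPM in P20 Saline and 4.4 to 12.7 TPM in P60 Saline_CTRL. The highest Peg3 values were 47.2 TPM in E17 MIA replicate 1 and 35.1 TPM in P7 MIA replicate 3, both among the libraries that stood apart.

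**Figure D1:**
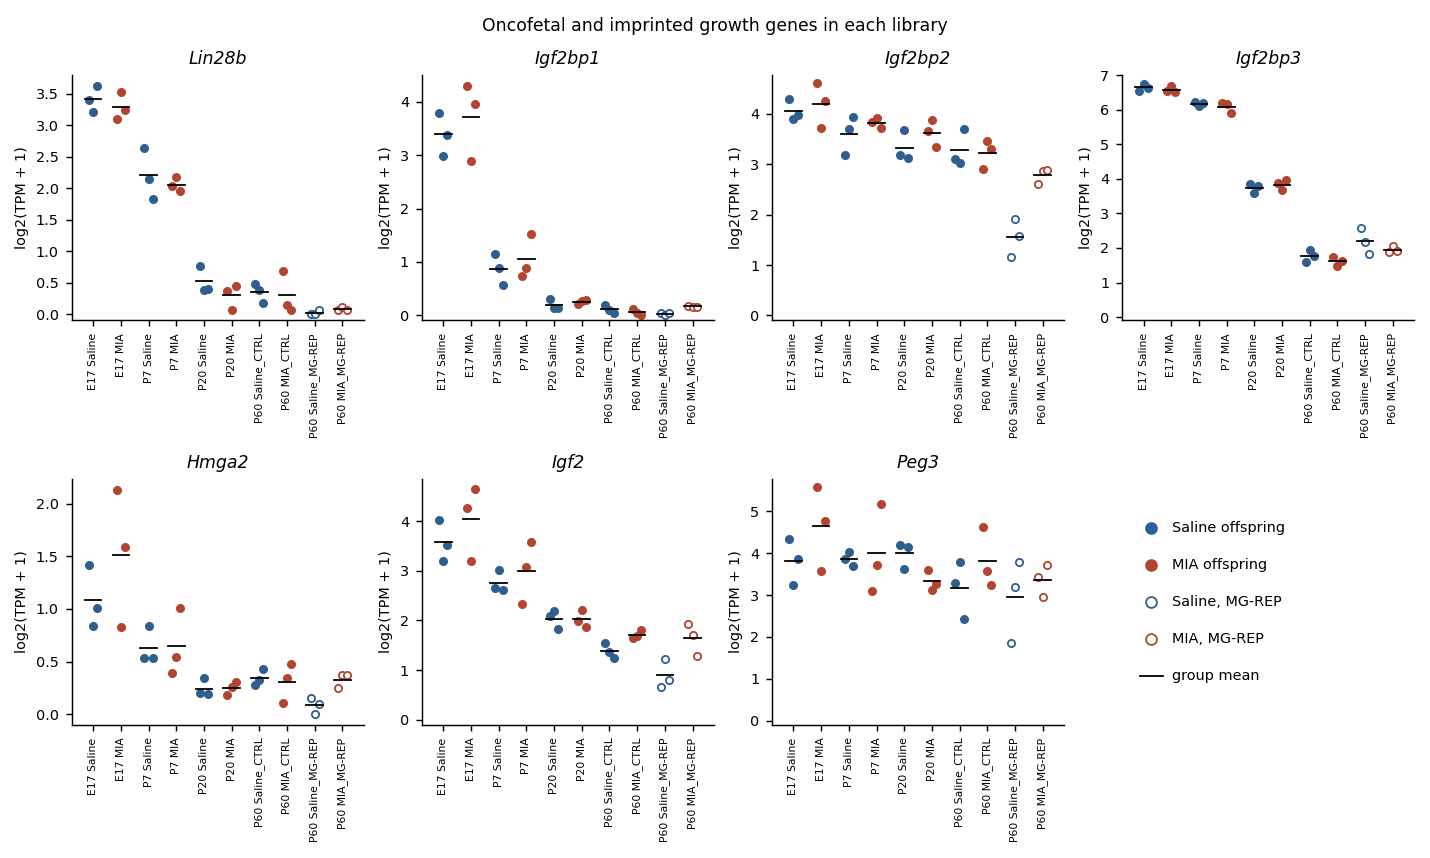
Level of each of the 7 genes, as log2(TPM + 1), in every library of the 10 groups, with points for libraries and a black line for the group mean. Lin28b, Igf2bp1 and Igf2bp3 are high at E17 and near the floor of their own range at P60, while Igf2bp2 is lowest in the 3 Saline_MG-REP libraries (1.23 to 2.79 TPM) and Peg3 overlaps across ages.

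The change with age was tested with limma on log2(TPM + 1), in 1 fit of all 30 libraries, with p-values adjusted by Benjamini-Hochberg over all 14225 transcripts. A gene counts as called at an adjusted p under 0.05, and a log2 change is a difference of group means on that scale, which understates the change of genes under about 1 TPM. Between E17 and P60 CTRL, 6 of the 7 genes fell in Saline and 6 of 7 in MIA offspring, and none rose. Of all transcripts, 47.5% were called in Saline (22.1% higher and 25.4% lower) and 48.1% in MIA (19.3% higher and 28.8% lower). The authors' filter on low counts bears on these counts. By the estimated reads, Hmga2 passed it through E17 libraries alone and Lin28b and Igf2bp1 through E17 and P7 libraries alone. These 3 genes thus have a row because of the ages at which they are high, and the counts over the 7 genes support nothing about the group. For these 3 genes a fall from the ages that passed to the later ages was fixed in advance. Their values for such falls, here and in the steps below, describe a size, and the p-values add no support. Of the 4 genes that would also have passed on their P60 CTRL libraries, Igf2bp3, Igf2bp2 and Igf2 fell and Peg3 was not called.

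In Saline offspring, Igf2bp3 fell by 4.89 ± 0.15 (SE) on the log2 scale (adjusted p = 1.03e-16), the lowest adjusted p of the 7 genes, and in MIA offspring by 4.97 ± 0.15 (adjusted p = 6.92e-17). In mean TPM, Igf2bp3 was 41.2 times as high at E17 as at P60 in Saline and 45.9 times as high in MIA. Igf2bp1 fell by 3.28 ± 0.25 in Saline (adjusted p = 2.9e-10) and by 3.67 ± 0.25 in MIA (5.34e-11), and Lin28b by 3.06 ± 0.19 (1.22e-11) and 2.99 ± 0.19 (1.66e-11). Because Igf2bp1 and Lin28b were near 0 at P60, these sizes depend on the pseudocount of 1.

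Igf2 fell by 2.19 ± 0.31 in Saline (adjusted p = 3.11e-06) and by 2.34 ± 0.31 in MIA offspring (1.3e-06), a 6.93-fold and a 7.44-fold difference of the TPM means. Hmga2 fell by 0.74 ± 0.21 (0.00611) and 1.21 ± 0.21 (5.98e-05), and Igf2bp2 by 0.78 ± 0.25 (0.0146) and 0.97 ± 0.25 (0.00291). The fall of Igf2bp2 in Saline lost its call without E17 Saline replicate 1 (adjusted p = 0.067) or without P60 Saline_CTRL replicate 1 (0.0575) or 2 (0.0714). Peg3 differed by -0.65 (95% interval -1.75 to 0.44, adjusted p = 0.324) and -0.83 (-1.92 to 0.27, 0.205) and was not called. The change from E17 to P60 was not called as different between MIA and Saline for any of the 7 genes, nor for any of the 14225 transcripts (0%), of which 226 had an unadjusted p under 0.05.

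The step at which a fall was called was not the same for all genes, and neither steps nor genes were compared by a test. From E17 to P7, 2 of 7 fell in Saline (4.32% of all transcripts called, 3.09% higher and 1.23% lower) and 3 of 7 in MIA offspring (2.39%, 1.59% higher and 0.801% lower). Igf2bp1 fell by 2.53 ± 0.25 in Saline (adjusted p = 1.6e-06) and 2.67 ± 0.25 in MIA (5.51e-07), and Lin28b by 1.20 ± 0.19 (0.000576) and 1.24 ± 0.19 (0.000544). Hmga2 was called in MIA, where it fell by 0.87 ± 0.21 (0.0282) with libraries that overlapped, and the difference from Saline was not tested for this step. Igf2bp3 differed by -0.48 (adjusted p = 0.0807) and -0.50 (0.0983) and was not called, although its libraries did not overlap. With a pseudocount of 0.1, Lin28b lost its call at this step in Saline (adjusted p = 0.0997) and in MIA (0.135), and Hmga2 lost its call in MIA (0.0897). With only the libraries of the 2 ages compared, Lin28b was not called in Saline (0.0526), and no gene was called in MIA (Lin28b 0.26, Igf2bp1 0.182, Hmga2 0.651). The call of Hmga2 also ended without E17 MIA replicate 1 (0.22) or 3 (0.0868) or P7 MIA replicate 1 (0.153) or 2 (0.123).

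From P7 to P20, 3 of 7 fell in Saline (36.2% of all transcripts called, 16.1% higher and 20.1% lower) and 4 of 7 in MIA offspring (35.6%, 13.1% higher and 22.5% lower). Igf2bp3 fell by 2.42 ± 0.15 in Saline (adjusted p = 2.41e-11) and 2.25 ± 0.15 in MIA (8.21e-11), and Lin28b by 1.69 ± 0.19 (3.51e-07) and 1.75 ± 0.19 (1.83e-07). Igf2bp1 fell further, by 0.67 ± 0.25 (0.0389) and 0.79 ± 0.25 (0.0152), and Igf2 fell in MIA by 0.98 ± 0.31 (0.0154). The Igf2bp1 call in Saline was lost without any one of P7 Saline replicates 1 and 2 and P20 Saline replicates 1, 2 and 3 (adjusted p = 0.0587 to 0.165). Without P7 MIA replicate 3, a library rich in other brain transcripts, the MIA changes of Igf2bp1 (0.109) and Igf2 (0.111) were not called. The Igf2 change was also not called without P20 MIA replicate 3 (0.0535) or with only the P7 and P20 MIA libraries (0.0573).

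From P20 to P60 CTRL, 1 of 7 fell in Saline (3.51% of all transcripts called, 1.02% higher and 2.49% lower) and 1 of 7 in MIA offspring (2.6%, 1.03% higher and 1.57% lower). In both it was Igf2bp3, by 1.99 ± 0.15 (adjusted p = 5.14e-08) and 2.22 ± 0.15 (4.84e-09). The Saline fall was not called with only the libraries of the 2 groups (0.0585), with the same size. Xist was at 172 to 193 TPM in all P20 libraries, but at 0.14 to 0.29 TPM in replicates 2 and 3 of both P60 CTRL groups. Sex and age are thus partly confounded at this step. With Xist as a covariate the change of Igf2bp3 was -2.0 in Saline (adjusted p = 1.14e-05) and -2.24 in MIA offspring (1.54e-06).

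The 3 Igf2bp paralogs changed places. Igf2bp3 made up 79.5% ± 4.64 (SD, n = 3 libraries) of the summed TPM of the family in E17 Saline, 85.3% ± 3.08 at P7, 57.5% ± 8.11 at P20 and 21.8% ± 6.00 in P60 Saline_CTRL. Igf2bp2 went from 12.6% ± 2.12 to 77.4% ± 6.15 between E17 and P60, while the family sum went from 125 ± 3.11 to 11.4 ± 2.63 TPM. The MIA controls held similar values at both ends, with Igf2bp3 at 75.7% ± 8.02 at E17 and 20.2% ± 5.66 at P60. In P60 Saline_MG-REP, Igf2bp3 was again the larger part, at 64.0% ± 13.8, with libraries from 55.7% to 79.9%, above the 16.6% to 28.4% of Saline_CTRL. The family sum in this group was 5.71 ± 0.982 TPM, the lowest of the 10 groups, so that the larger share goes with less Igf2bp2. In MIA_MG-REP, Igf2bp3 made up 32.3% ± 2.09 of 8.90 ± 0.928 TPM. These shares are descriptions and were not tested.

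**Figure D2:**
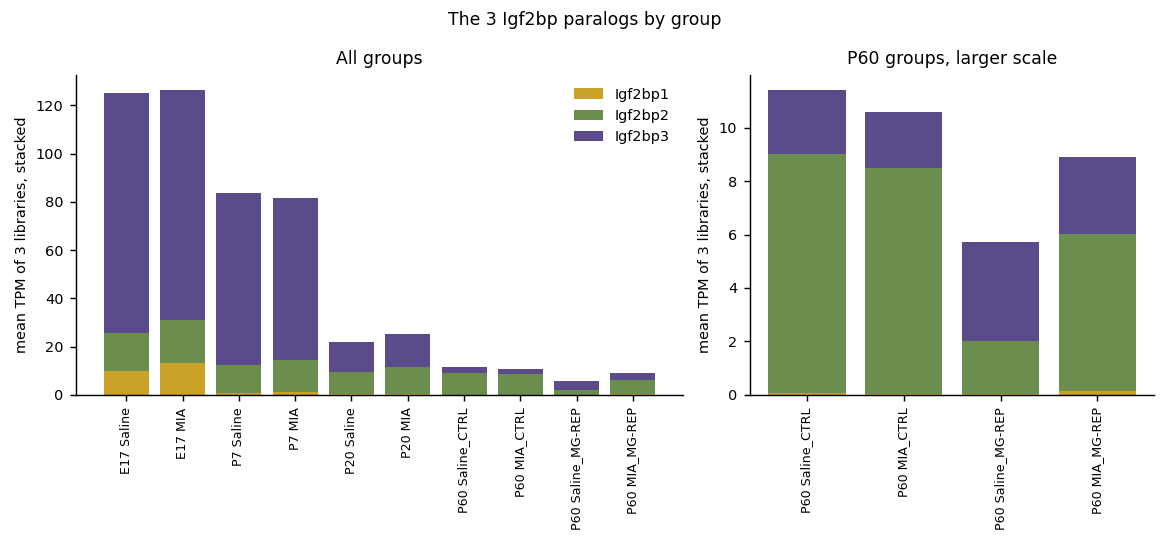
Mean TPM of Igf2bp1, Igf2bp2 and Igf2bp3, stacked, for all 10 groups (left) and for the 4 P60 groups on a larger scale (right), each bar the mean of 3 libraries. The sum goes from 125 TPM in E17 Saline to 5.71 TPM in P60 Saline_MG-REP, and Igf2bp2 is the larger part in the P60 groups other than Saline_MG-REP.

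Between MIA and Saline offspring, none of the 7 genes was called at E17, P7, P20 or P60 CTRL. No transcript of the 14225 was called at any of these ages (0%), and 585, 335, 457 and 256 had an unadjusted p under 0.05, so that these comparisons place no gene apart. For Igf2bp3 at E17 the 95% interval of the log2 difference was -0.38 to 0.26, and for Lin28b -0.51 to 0.28. For Peg3 it was -0.27 to 1.92, with a mean of 28.1 ± 18.2 TPM in MIA and 13.8 ± 5.49 TPM in Saline.

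The genes differed in how far the E17 libraries of one group spread. The highest library was 1.17 and 1.11 times the lowest for Igf2bp3 in Saline and MIA, and 1.38 and 1.39 times for Lin28b. The ratio was 2.30 and 4.33 for Peg3, 2.11 and 4.32 for Hmga2, 1.86 and 2.94 for Igf2, 1.87 and 2.90 for Igf2bp1, and 1.33 and 1.91 for Igf2bp2. For each of the latter 5 genes, replicate 1 was the highest and replicate 2 the lowest library of E17 Saline. In E17 MIA, replicate 2 was the lowest, and replicate 1 was the highest for Peg3, Hmga2, Igf2bp1 and Igf2bp2 and replicate 3 for Igf2. Lin28b and Igf2bp3 had their highest E17 MIA value in replicate 2, at 10.5 and 102 TPM.

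Several lists of markers of other brain cells moved with this spread, and others did not. Neural progenitor markers (4 of 6 on the list measured) summed to 869.5 TPM in E17 MIA replicate 1, 494 in replicate 3 and 278 in replicate 2. In E17 Saline they summed to 454, 258 and 354 TPM in replicates 1, 2 and 3. Endothelial markers (5 of 7 measured) were at 1737, 859 and 2944 TPM in the E17 MIA libraries and at 1913, 609 and 1178 TPM in the Saline libraries. Markers of pericytes and meningeal fibroblasts (6 of 7 measured) ran from 336 to 1328 TPM at E17, choroid plexus markers (4 of 6) from 1357 to 12340 TPM, and neuron markers (5 of 8) from 154 to 1157 TPM. In each of these 5 lists 1 of the replicate 2 libraries was the lowest of the 6, and none of their measured markers was at 0. Neuron markers were nevertheless close in E17 MIA replicates 2 and 3 (188 and 194 TPM). Oligodendrocyte markers (4 of 6 measured) went the other way in E17 Saline, with 33.3, 39.7 and 40.3 TPM in replicates 1, 2 and 3, and were at 51.9, 37.6 and 38.5 TPM in E17 MIA. Astrocyte markers were at 179, 121 and 175 TPM in E17 Saline and 167, 83.8 and 252 TPM in E17 MIA. Microglia markers were highest in replicate 2, with 20810, 26180 and 24790 TPM in E17 Saline and 14960, 25410 and 18290 TPM in E17 MIA. Border macrophage markers were at 923, 1245 and 1024 TPM and at 776, 1251 and 504 TPM in these groups. Monocyte and neutrophil markers were at 739, 820 and 954 TPM and at 306, 1304 and 396 TPM. At P7, MIA replicate 3 had the highest Peg3 (35.1 TPM), Igf2 (10.97 TPM), Igf2bp1 (1.86 TPM) and Hmga2 (1.02 TPM) of its group, the lowest Lin28b, Igf2bp3 and Igf2bp2, and 607 TPM of neural progenitor markers against 270.5 and 281. The part of these cells in the levels of Peg3, Hmga2, Igf2, Igf2bp1 and Igf2bp2 was not tested.

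**Figure D3:**
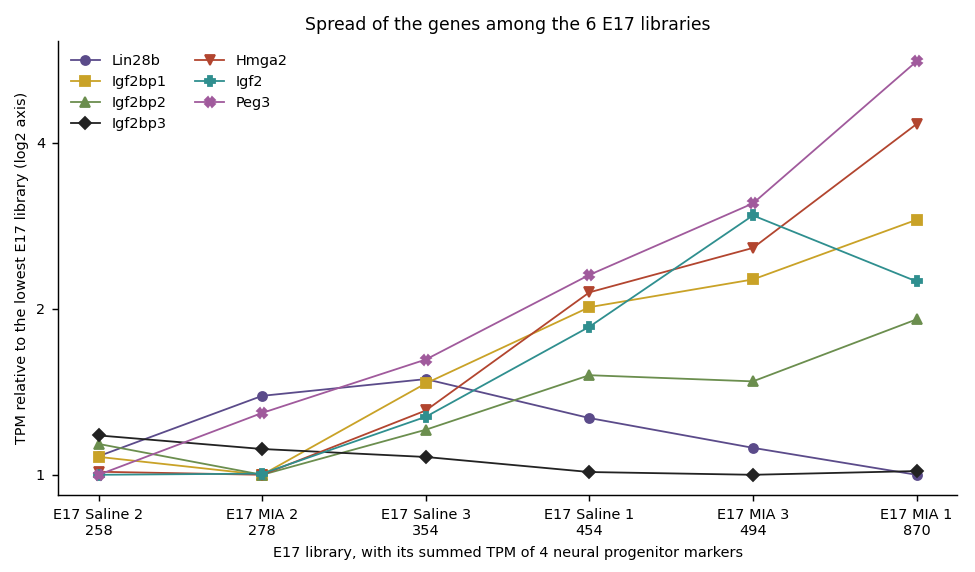
TPM of each of the 7 genes in the 6 E17 libraries, divided by the lowest of the 6 (log2 axis), with libraries ordered by their summed TPM of 4 neural progenitor markers, from 258 to 869.5. Peg3, Hmga2, Igf2, Igf2bp1 and Igf2bp2 are higher in the 3 libraries on the right than in the 2 on the left, and Lin28b and Igf2bp3 are not.

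Repopulated microglia were compared with CTRL microglia at P60 to ask whether the fetal genes come back on after depletion. In Saline offspring 2 of the 7 genes were called, 1 higher and 1 lower, where 26.7% of all transcripts were called (11.9% higher and 14.9% lower). After median-ratio scaling the split of those calls turned from 1687 higher and 2118 lower to 2076 higher and 1532 lower, with the same calls among the 7 genes. In MIA offspring none of the 7 was called, where 0.555% of all transcripts were called, and 882 transcripts had an unadjusted p under 0.05. The median change of the 7 genes was -0.26 in Saline and -0.07 in MIA, beside -0.14 and -0.08 over all transcripts.

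Igf2bp2 fell by 1.73 ± 0.25 in Saline_MG-REP (95% interval -2.25 to -1.20, adjusted p = 1.24e-05), from 8.93 ± 2.69 to 2.00 ± 0.780 TPM, with all 3 libraries below all 3 controls. In MIA offspring its difference was -0.44 (interval -0.97 to 0.08, adjusted p = 0.921), at 5.91 ± 0.750 TPM in MIA_MG-REP and 8.47 ± 1.81 TPM in MIA_CTRL, also with no overlap. The difference between these 2 changes was 1.29 ± 0.36 (interval 0.55 to 2.03, adjusted p = 0.021), where 10.5% of all transcripts were called (4.42% higher and 6.09% lower) and 1 of the 7 genes. That call was lost without P60 Saline_CTRL replicate 3, MIA_CTRL replicate 1, Saline_MG-REP replicate 1 or MIA_MG-REP replicate 2 (adjusted p = 0.0527 to 0.0784) and after quantile normalization (0.0606) or with only the 4 groups (0.0555). Between the repopulated groups themselves, Igf2bp2 was higher in MIA_MG-REP by 1.23 ± 0.25 (adjusted p = 0.000931), the only one of the 7 genes called where 22.0% of all transcripts were (10.9% higher).

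Igf2bp3 rose by 0.44 ± 0.15 in Saline_MG-REP (interval 0.12 to 0.75, adjusted p = 0.038), from 2.41 ± 0.430 to 3.70 ± 1.22 TPM, which is 3.71% of its E17 level. The libraries of the 2 groups overlapped, and the call was lost without Saline_CTRL replicate 1 (0.17) or 3 (0.0731) or Saline_MG-REP replicate 1 (0.312) or 2 (0.0628), and with only the 2 groups in the fit (0.31). In MIA offspring Igf2bp3 differed by 0.33 (interval 0.01 to 0.65, adjusted p = 0.767), at 2.87 ± 0.254 TPM in MIA_MG-REP, which is 3.01% of its E17 level. The difference of the 2 changes was -0.10 (interval -0.55 to 0.35).

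The other 5 genes were not called in either kind of offspring. Lin28b differed by -0.32 in Saline (interval -0.72 to 0.07, adjusted p = 0.231) and -0.21 in MIA (-0.60 to 0.18, 0.978). Each upper bound lies under the 3.06 and 2.99 by which it fell with age, a fall whose direction the filter had fixed. This shows only that the E17 level was not regained. With 1 to 16 estimated reads in each P60 group, smaller changes cannot be judged on this scale. With a pseudocount of 0.1 the Saline difference of Lin28b was -1.65 (adjusted p = 0.0119) and that of Hmga2 -1.27 (0.0438), both toward lower levels in MG-REP. The scarce gene Igf2bp1 went the other way in MIA offspring, where the MIA_MG-REP libraries (0.12 to 0.13 TPM, 12 estimated reads in all) lay above every MIA_CTRL library (0 to 0.08 TPM, 3 reads), with no call. On the main scale, Igf2bp1 differed by -0.08 and 0.12, Hmga2 by -0.26 and 0.02, Igf2 by -0.48 and -0.07, and Peg3 by -0.21 and -0.45, in Saline and MIA. The upper bounds of these 4 genes were 0.43 and 0.63 for Igf2bp1, 0.18 and 0.46 for Hmga2, 0.15 and 0.56 for Igf2, and 0.88 and 0.64 for Peg3. For Igf2bp1, Hmga2 and Igf2 each bound lies under the size of the fall with age in the same offspring. For Igf2bp1 and Hmga2 the filter had fixed the direction of that fall, and their P60 reads are few, so that smaller rises cannot be judged.

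**Figure D4:**
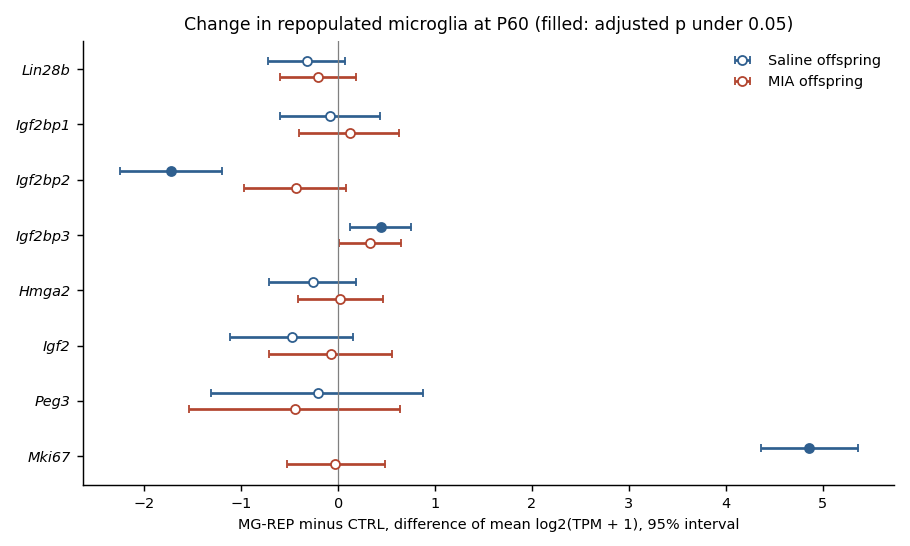
Difference of mean log2(TPM + 1) between MG-REP and CTRL at P60 for the 7 genes and for the proliferation gene Mki67, in Saline and MIA offspring, with 95% intervals from limma and filled points for an adjusted p under 0.05. In Saline offspring Igf2bp2 is at -1.73, Igf2bp3 at 0.44 and Mki67 at 4.86, and no point of the MIA offspring is filled.

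Several features of the P60 libraries moved with these comparisons. Xist was at 159 to 174 TPM in all 6 MG-REP libraries and at 124 and 140 TPM in replicate 1 of Saline_CTRL and MIA_CTRL, but at 0.14 to 0.29 TPM in replicates 2 and 3 of both CTRL groups. Sex is thus partly confounded with chow in these comparisons. With Xist as a covariate, the change of Igf2bp2 in Saline offspring was -1.47 (adjusted p = 0.00148), that of Igf2bp3 was 0.45 (0.105), and that of Lin28b was -0.62 (0.0438). Replicate 1 of Saline_CTRL, with Xist present, held 7.63 TPM of Igf2bp2 against 1.23 to 2.79 TPM in Saline_MG-REP, and 1.99 TPM of Igf2bp3 against 2.58 to 5 TPM. Endothelial markers summed to 265 to 550 TPM in Saline_MG-REP and 708 to 1132 TPM in Saline_CTRL, and pericyte and meningeal fibroblast markers to 139 to 328 TPM and 346 to 666 TPM. Of the microglia markers, Cx3cr1 was at 1578 ± 37.9 TPM in Saline_MG-REP and 4093 ± 796 TPM in Saline_CTRL, Fcrls at 1551 ± 146 and 3120 ± 384 TPM, and Csf1r at 4784 ± 248 and 8030 ± 1362 TPM, with no overlap, while C1qa overlapped (8875 ± 710 and 8702 ± 1869 TPM). The border macrophage markers (5 of 5 measured) summed to 597 to 1185 TPM in Saline_MG-REP and 332 to 436 TPM in Saline_CTRL, a difference that lay in Pf4 alone (577 ± 281 and 137 ± 17.6 TPM). Of the others, none was higher in mean by more than its spread, with Mrc1 at 186 ± 47.4 and 195 ± 18.2 TPM, F13a1 at 2.00 ± 0.496 and 1.99 ± 0.452 TPM, Lyve1 at 30.9 ± 9.28 and 44.8 ± 17.9 TPM, and Cd163 at 0 in Saline_MG-REP replicates 1 and 2. Monocyte and neutrophil markers (6 of 7 measured) reached 4612 TPM in Saline_MG-REP replicate 2, beside 83.7 and 315 TPM in replicates 1 and 3 and 616 to 791 TPM in Saline_CTRL. The change of Igf2bp2 was -1.91 without that replicate and -1.91 to -1.52 over the 6 fits that left out 1 library, each of them called. The part of any of these cells in the changes of Igf2bp2 and Igf2bp3 was not tested.

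The fall of the fetal genes and the end of division in microglia were compared through 20 mitotic genes, of which 15 were measured. From E17 to P7, 0 of 15 were called in either kind of offspring, and from P7 to P20 all 15 fell, with a median log2 change of -4.37 in Saline and -4.43 in MIA. Mki67, a marker of dividing cells, was at 162 ± 18.6 TPM in E17 Saline, 183 ± 15.5 TPM in P7 Saline, 4.0 ± 1.005 TPM in P20 Saline and 3.27 ± 0.539 TPM in P60 Saline_CTRL. In Saline, Igf2bp1 and Lin28b thus fell from E17 to P7, where Mki67 was not called (log2 0.17, interval -0.33 to 0.68). Both fell again from P7 to P20 together with Mki67, Lin28b by more than before (1.69 against 1.20 on the log2 scale). The first Lin28b call was lost with a pseudocount of 0.1 (adjusted p = 0.0997) or with only the 2 ages in the fit (0.0526). The second Igf2bp1 call was lost in 5 of 6 fits without 1 library. Igf2bp3 was not called at the first of these steps, and fell at the second and again from P20 to P60. In Saline_MG-REP all 15 mitotic genes rose, by a median of 3.98, with Mki67 at 234, 93.9 and 82.9 TPM and Ube2c, a ubiquitin-conjugating enzyme of mitotic exit, higher by 5.50 ± 0.35 (adjusted p = 3.13e-11). In the same 3 libraries Lin28b was at 0 to 0.05 TPM and Igf2bp1 at 0 to 0.03 TPM, while the P7 Saline libraries, with 171 to 200 TPM of Mki67, held 2.56 to 5.20 and 0.47 to 1.22 TPM of them. None of the 15 was called in MIA offspring.

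Other genes around LIN28 and let-7 included the enzymes of microRNA processing and the let-7 targets that drive growth. Of 25 named genes, 15 were measured, and from E17 to P60 CTRL 5 fell in Saline and 11 in MIA offspring, with none higher and medians of -0.58 and -0.60. Over all transcripts 25.4% were lower in Saline and 28.8% in MIA, so that the count in Saline is near the background. The change from E17 to P60 was not called as different between MIA and Saline for any of the 15, so that the 2 counts show no difference between them. In Saline, Mycn, a growth regulator, was at 12.96 ± 5.54 TPM at E17 and 2.40 ± 1.77 TPM at P60 (log2 -2.13 ± 0.50, adjusted p = 0.00115). Cdc25a, a phosphatase that starts DNA replication, went from 52.0 ± 7.52 to 17.3 ± 2.29 TPM (-1.53 ± 0.17, adjusted p = 1.46e-07). In Saline_MG-REP, 2 of the 15 rose and 1 fell against CTRL, close to or under the 11.9% higher and 14.9% lower of all transcripts. Ccnd1, a cyclin of early cell cycle, rose by 0.72 ± 0.22 (adjusted p = 0.0157) and Cdc25a by 0.69 ± 0.17 (0.00403), and Zcchc11, which tails the let-7 precursor that LIN28 holds, fell by 0.87 ± 0.21 (0.00287). Both rises lost their calls with only the 2 groups in the fit (0.111 and 0.141) and without Saline_MG-REP replicate 1 (0.188 and 0.0546). That of Ccnd1 was also lost without Saline_CTRL replicate 1 (0.0554) and with Xist as a covariate (0.0545).

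Of 22 named genes of the IGF axis, 19 were measured, on 21 transcripts. From E17 to P60 CTRL, 6 transcripts fell and 3 rose in Saline, and 8 fell and 3 rose in MIA offspring. These counts are near the background of 25.4% lower and 22.1% higher in Saline and 28.8% and 19.3% in MIA, and say nothing particular about the list. Igfbp3, which binds IGFs outside the cell, fell from 194 ± 102 to 24.2 ± 7.72 TPM in Saline (log2 -2.86 ± 0.52, adjusted p = 7.61e-05). Igf2r, an imprinted receptor that clears IGF2, fell from 42.0 ± 19.1 to 7.58 ± 1.97 TPM (-2.25 ± 0.36, adjusted p = 1.66e-05). Htra1, a protease that cuts IGF binding proteins, rose from 71.9 ± 32.1 to 324 ± 217 TPM (2.06 ± 0.52, adjusted p = 0.00241). Igfbp5 rose by 1.39 ± 0.47 (0.0174), a call that was lost without E17 Saline replicate 2 (0.0579) or P60 Saline_CTRL replicate 1 (0.0629) or 2 (0.1). In Saline_MG-REP, 2 transcripts rose and 2 fell, a smaller share than the 11.9% and 14.9% of all transcripts. They were Irs2, an adaptor of the IGF1 and insulin receptors (0.96 ± 0.19, adjusted p = 0.000495), Igfbp4 (0.62 ± 0.14, 0.00184), the IGF receptor gene Igf1r (-1.14 ± 0.33, 0.0123) and the more abundant transcript of Pik3r1, a regulatory subunit of PI3-kinase (-0.81 ± 0.14, 6.77e-05). The second transcript of Pik3r1 was at 0.193 ± 0.0961 TPM in Saline_MG-REP and was not called (0.07 ± 0.16, adjusted p = 0.795). With only the 2 groups in the fit, Igfbp4 (0.0858) and Igf1r (0.0586) were not called, nor was Igf1r without Saline_CTRL replicate 1 (0.0636) or Saline_MG-REP replicate 1 (0.123).

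Other imprinted genes moved in both directions. Of 58 named, 39 were measured, on 45 transcripts, and from E17 to P60 CTRL 17 fell and 7 rose in Saline and 16 fell and 6 rose in MIA offspring, where 25.4% and 28.8% of all transcripts were lower and 22.1% and 19.3% higher. Meg3, a maternally expressed long RNA, fell from 43.4 ± 17.2 to 3.28 ± 1.95 TPM in Saline for its more abundant transcript (log2 -3.41 ± 0.46, adjusted p = 1.62e-06). Plagl1, a zinc finger gene, fell from 49.5 ± 25.4 to 4.85 ± 2.05 TPM (-3.04 ± 0.43, 3.58e-06). Rasgrf1, a Ras exchange factor, rose from 0.393 ± 0.160 to 10.2 ± 4.54 TPM (2.92 ± 0.44, 7.58e-06), and Nap1l5 from 10.2 ± 4.01 to 51.2 ± 27.3 TPM (2.13 ± 0.55, 0.00247). In Saline_MG-REP, 2 of the 45 rose and 9 fell, beside 11.9% and 14.9% of all transcripts, and in MIA_MG-REP none was called. Qpct rose from 0.730 ± 0.426 to 10.7 ± 3.12 TPM (2.76 ± 0.26, adjusted p = 2.32e-08) and Commd1 by 0.62 ± 0.14 (0.00116, but 0.0865 with only the 2 groups). Estimated reads are not given for the genes of the background lists. The authors' filter may have passed scarce ones, such as Rasgrf1 at E17 or Qpct in Saline_CTRL, only through groups where they were higher. The direction of a change from or to such a low group may have been fixed in advance, and its p-value then adds no support. Ppp1r9a fell by 1.40 ± 0.20 (9.95e-06), and Dcn, which is also a marker of fibroblasts, by 1.27 ± 0.34 (0.00675, but 0.0825 with only the 2 groups and 0.0666 without Saline_MG-REP replicate 1).

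Over the 10 group means, the levels of Lin28b stood highest in E17 Saline and E17 MIA, whose libraries overlapped, then in P7 Saline and P7 MIA, which also overlapped, and from P20 Saline downward each group overlapped with the next. The order of Igf2bp1 had the same 2 gaps, below E17 and below P7. For Igf2bp2, all neighbours overlapped down to P60 MIA_CTRL, with gaps above and below MIA_MG-REP.

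Among the transcripts that averaged at least 1 TPM (12638 compared), those most like each gene were found by Pearson's r of the 10 group means, as a description. For Lin28b they were Dhx38 (0.994), Gm5483 (0.993) and Smarce1 (0.993), and for Igf2bp3 Morf4l2 (0.994), Dcaf15 (0.994) and Mapre1 (0.993). Among the genes most like Igf2bp1 were Lrrc15 (0.992) and Sp9 (0.991), and those most like Igf2 were Scn3a (0.994), Tiam1 (0.990) and Igf2r (0.989). For Igf2bp2 they were Arl15 (0.982), Suco (0.976) and L3hypdh (0.975), and for Peg3 Fzd3 (0.979), Lrp3 (0.971) and Hsbp1 (0.967). All points share the same libraries and ages.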

How the data were processed

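The authors used Rsubread to map poly(A) RNA reads to mm10 and featureCounts with UCSC gene models to assign them, kept genes by a CPM filter and deposited TPM for 14225 transcripts. How TPM was computed is not given in the sources used here. Libraries were grouped by their labels, and no column was left unmapped. The 10 genes and the background lists were chosen with earlier results of these data known. TPM was used as deposited, with no further filter. In R 4.3.3, limma 3.58.1 was fitted to log2(TPM + 1) with 10 group means, a mean-variance trend and two-sided tests, adjusted by Benjamini-Hochberg over all transcripts. The fit was tested on simulated data. The p-values measure the spread of libraries within groups, pooled over all 10 groups and drawn toward that of transcripts with a similar mean. They do not measure the spread of only the 3 and 3 libraries that are compared. From each background list, the 2 largest rises and 2 largest falls among called genes without overlap between groups could be named. A second transcript of Meg3 also met this rule and is not described. Genes most like a member were found for members with a mean of at least 1 TPM, which leaves out Hmga2. Some values are not reported here. Estimated reads come from the steps of low TPM and transcript lengths, known for 14005 transcripts. Of low values, 69.5% to 75.4% were within 0.2 of a whole read, where chance gives 40%, so that whole reads could not be recovered and no count test was run. Coordinates are those of RefSeq (GRCm38.p6) or GENCODE M21 (GRCm38), the build mm10 of the files. Numbered libraries of Saline and MIA deviated together in all 3 pairs at P20 only (correlations 0.238, 0.104 and 0.132). Single pairs were closer at other ages, with 0.404, 0.656 and 0 for replicates 1, 2 and 3 at E17 and 0.203, -0.166 and 0.634 in P60 CTRL. Alternatives were another pseudocount, a filter of 1 TPM on the mean, quantile normalization, median-ratio scaling, a block for the replicate number, only the groups compared, no trend, Xist as a covariate and each library left out, and, chosen after seeing the data, a block within each age.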

Additional observations from a re-analysis of the deposited data

Results flagged for a closer look

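The change of Igf2bp2 with repopulation differed between MIA and Saline offspring by 1.29 on the log2(TPM + 1) scale (limma, adjusted p = 0.021), which is why it is listed here. The call was lost in 4 of 12 fits without 1 library (highest adjusted p = 0.0784), after quantile normalization (0.0606) and with only the 4 groups in the fit (0.0555). The change of Igf2bp2 with repopulation was -1.73 in Saline and -0.44 in MIA offspring, of which only the former passed the test (adjusted p = 0.921 in MIA).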

How the results depend on the processing

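Each count of called genes kept within 1.5 times its value under every alternative, apart from those named here. With a pseudocount of 0.1, 1 gene was called from E17 to P7 in Saline and 1 in MIA, 4 for MG-REP against CTRL in Saline and 2 for MIA against Saline in MG-REP. With only the groups compared in the fit, the counts were 0 from P20 to P60 in Saline, 0 from E17 to P7 in MIA, 1 for MG-REP in Saline and 0 for the difference of the MG-REP changes, which was also 0 after quantile normalization. Leaving out 1 library gave 2 to 4 genes from P7 to P20 in MIA, 1 to 2 for MG-REP in Saline, 1 to 2 for MIA against Saline in MG-REP and 0 to 1 for the difference of the MG-REP changes. The replicate number as a block over all groups changed none of the 17 counts or 70 single-gene calls. As a block within each age, added after seeing the data, it left 1 gene for MG-REP in Saline, since Igf2bp3 was no longer called (adjusted p = 0.0586). Same-numbered libraries did not deviate together in all pairs other than at P20, where no gene was called with or without a block. Among genes that were not called, the MG-REP difference in MIA turned to 0.01 for Igf2 after quantile normalization and the Saline difference of the scarcer Pik3r1 transcript to -0.05 with Xist as a covariate. Over the fits without 1 library, the MG-REP difference in MIA ran from -0.22 to 0.1 for Igf2 and from -0.08 to 0.1 for Hmga2, and that of Peg3 in Saline from -0.63 to 0.33. Median-ratio scaling and moderation without a trend moved none of these calls, and the filter on mean TPM, which removed Hmga2, moved none of the others. The causes of these changes were not tested. Over all transcripts, only the groups compared gave 5 calls in place of 499 from P20 to P60 in Saline, 10 in place of 340 from E17 to P7 in MIA and 1911 in place of 3805 for MG-REP in Saline. With Xist as a covariate the counts were 115 from P20 to P60 in Saline, 111 in place of 370 in MIA and 30 in place of 79 for MG-REP in MIA, and quantile normalization gave 628 from P20 to P60 in MIA. Scaling also moved the split into higher and lower calls, under median-ratio scaling from 145 and 354 to 169 and 208 (P20 to P60, Saline), from 146 and 224 to 208 and 195 (P20 to P60, MIA) and from 1858 and 3205 to 2429 and 2513 (P7 to P20, MIA), and under quantile normalization from 440 and 175 to 345 and 248 (E17 to P7, Saline). Quantile normalization moved the median of all transcripts for MIA against Saline at E17 from 0.0979 to -0.0165. With 3 libraries a group and under 20 estimated reads for Lin28b, Igf2bp1 and Hmga2 in each P60 group, changes among their P60 levels are at the limit of the depth.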
